A study of Mus musculus with 9 samples.

Results

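The genes described here are 57 BMP and Wnt signals of the colonic crypt niche: 22 genes of the BMP arm, 17 Wnt ligands, R-spondins and secreted antagonists, and 18 Wnt targets and stem cell genes. They were found by symbol on an Affymetrix whole-genome mouse array, where all 57 had at least 1 row (probe set) annotated to that symbol alone. This gave 118 rows among the 45037 rows tested, 47, 32 and 39 in the 3 arms. The samples were 9 whole mouse colons with 1 array each, from mice bred on a mix of C57BL/6 and Balb/c. The 5 mutant samples were Rosa26-CreERT2-Ptch1fl/fl, in which tamoxifen removes exons of the Hedgehog receptor gene Ptch1 in cells throughout the body. The 4 wildtype samples were Rosa26-CreERT2-Ptch1+/+ and so carried the same Cre with intact Ptch1. Both groups received 1 mg tamoxifen on each of 5 consecutive days, and colons were taken at day 12. The labels give no age or sex and do not say that each array came from a separate animal, so p-values measure only the spread between these samples, which may be technical.

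BMPs are secreted proteins that bind paired type I and type II receptors, which phosphorylate Smad1 and Smad5. With Smad4 these enter the nucleus and switch on targets such as the Id genes. In the intestine BMP signalling is strongest towards the surface, where it favours differentiation, and antagonists made by mesenchyme around the crypt base hold it low there. Wnt ligands and R-spondins, which amplify Wnt signalling, do the opposite at the crypt base and maintain the stem cells. Hedgehog ligands come from the epithelium and act on the mesenchyme, which makes many of these BMP and Wnt signals. Work on this Ptch1 deletion has described effects on the epithelial precursor cells of the crypt and on BMP signalling, and the comparison of mutant with wildtype colons asks whether the genes of these pathways differed at the RNA level.

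Names and values have to be read with a limit that holds for this whole table. Across 9010 genes with at least 2 rows, the absolute moderated t of the first 2 rows correlated at a Spearman's rho of 0.252, but their mean log2 levels correlated at 0.0301. Where both rows passed the test, 71 of 134 pairs had the same sign (53.0%). Among the genes described here, 9 pairs of rows of 1 gene were both at an unadjusted p under 0.05, and 4 of these had the same sign. A name therefore carries something of how strongly the groups differed, and it could not be tied to a direction, a fold change or a level of signal. The bacterial hybridisation controls BioB, BioC, BioDn and Cre, which the array maker supplies in rising amounts in that order, did not follow that order in these rows. Mean intensities were 174 to 1400 over 3 rows of BioB, 700 to 779 over 2 rows of BioDn and 413 to 908 over 2 rows of Cre, and both rows of BioC lay below those of BioB, the lower at 19.4, though the labels do not say that the controls were added. Names and values may not belong together in the deposited table, so a row named Smoc2 or Lgr5 may not hold the signal of that gene, and which rows this would touch was not tested. Each value below is the strength of the difference in the row that carries the name: the absolute t, its percentile among the 45037 rows, the limma p-value adjusted by Benjamini-Hochberg over all rows, and whether mutant and wildtype arrays overlapped. For the same reason neither the tissue nor the cell types could be checked by marker level.

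The strength of the difference in BMP and Wnt genes was close to that in other genes. Of the 118 rows, 8 passed an adjusted p of 0.05 by limma (6.78%), against 5.19% of 34827 rows of other genes. At an unadjusted p under 0.05 there were 27 (22.9%, against 21.1%), and in 14 rows mutant and wildtype arrays did not overlap (11.9%, against 9.77%). The median row lay at the 58.8th percentile of the absolute t, beside 52.2 for other genes. The 8 rows belonged to 7 genes, namely Smoc2 with 2 rows and Prom1, Lgr5, Dkk2, Frzb, Smad1 and Bmpr2 with 1 each. Counted by gene, 12.3% had a row past the threshold, against 8.42% of 18136 other genes, with 2.07 rows per gene here and 1.92 there. Among other genes this share grew with the number of rows, from 5.13% with 1 row to 8.78% with 2 and 13% with 3. The counts here were 2 of 24, 3 of 14 and 2 of 13, and 0 of 6 with 4 or more rows, where other genes had 17.4%.

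**Figure D1:**
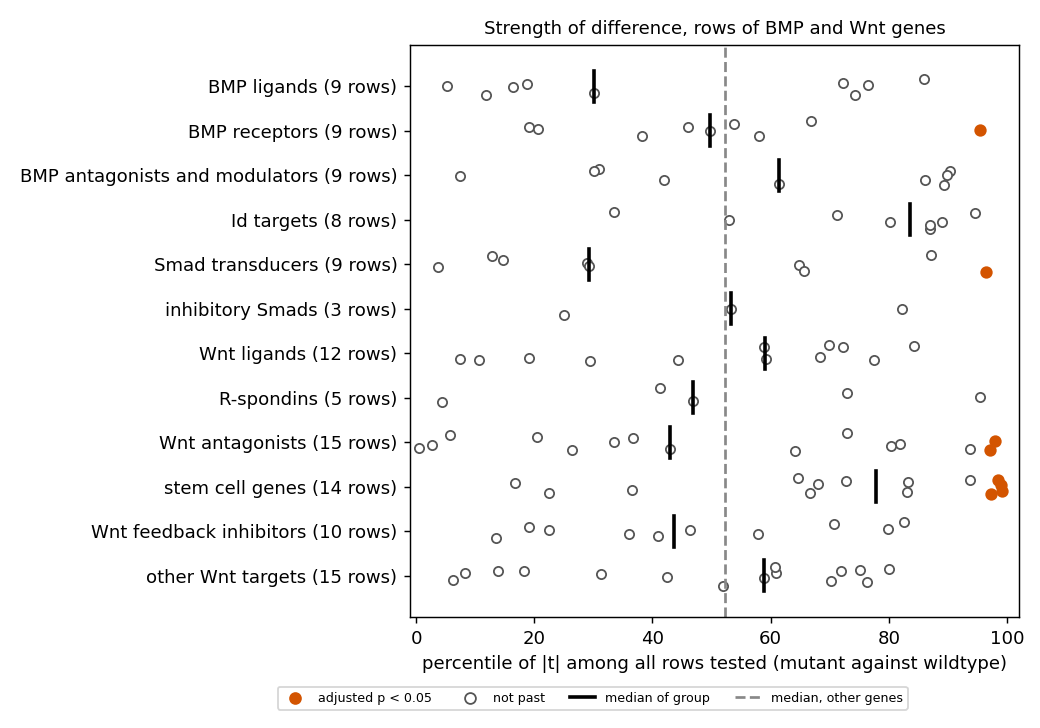
Percentile of the absolute t of each of the 118 rows among all 45037 rows (x axis), grouped by the role of the gene (y axis), with filled points for rows at an adjusted p under 0.05, black bars for group medians and a dashed line for the median of other genes at 52.2. The filled points are 4 rows of stem cell genes, 2 of Wnt antagonists, 1 of a BMP receptor and 1 of a Smad transducer, and the highest group medians are those of Id targets (83.6) and stem cell genes (77.9).

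All of these calls were lost when certain single arrays were left out, and some or none when others were. The titles number the arrays, at a mean of 4.2 in the mutant and 8 in the wildtype group, so genotype was partly tied to array number. With this number in the model, 0 of the 118 rows passed by limma, and 0.0775% of other rows did. At an unadjusted p under 0.05 there were 18 of the 118, beside 14.3% of other rows. A part of array number in the calls and a loss of power from a covariate tied to genotype cannot be told apart here. Without wildtype replicate 3, and likewise without wildtype replicate 4, 0 of 118 passed, while the share of other rows past the threshold was 0.991% and 1.02%. At an unadjusted p under 0.05 there were 23 and 22 of the 118, beside 17.3% and 17.4% of other rows. Without mutant replicates 2 or 3 the count was 2 each time (1.69%, against 1.77% and 1.76% of other rows). Without mutant replicate 1 or wildtype replicate 2 it was 3 each time (2.54%, against 3.52% and 2.87%). It was 7 without mutant replicate 4 (5.93%, against 5.27%) and 6 without mutant replicate 5 (5.08%, against 3.88%). Without wildtype replicate 1 it was 10 (8.47%, against 6.5%). The median percentile of the 118 rows stayed between 51.1 and 62.1 when arrays were left out in turn.

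To show the arrays behind each call without a level or a direction, each array's value was expressed as its distance from the wildtype mean. The unit is the standard deviation of that row in the limma fit, and the sign was turned so that the mutant mean lies above 0. These distances show how far the arrays were apart, and a positive value does not mean higher expression.

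The stem cell genes, which mark or maintain the dividing cells of the crypt base, held 4 of the 8 rows past the threshold. Of their 14 rows 4 passed (28.6%, against 5.19% of rows of other genes), and 3 of the 6 genes were named by them. The grouping by role was made with earlier results for Smoc2, Prom1 and Lgr5 known, so this share is a description. Smoc2 encodes a secreted matrix protein enriched in intestinal stem cells. Its row 1431362_a_at had the largest absolute t of all 118 rows, 6.26 (99.2nd percentile, limma adjusted p = 0.016). The mutant arrays lay at 4.07, 5.11, 5.16, 2.71 and 3.94 and the wildtype arrays at 0.33, 1.51, -1.07 and -0.76. The groups did not overlap, with a gap of 1.20 standard deviations between mutant replicate 4 and wildtype replicate 2. The other Smoc2 row, 1415935_at, passed as well (absolute t 5.46, limma adjusted p = 0.023). Its mutant arrays lay at 2.48, 3.82, 3.78, 4.67 and 3.55 and its wildtype arrays at -0.24, 2.11, -1.21 and -0.67. Here wildtype replicate 2 came within 0.366 standard deviations of the nearest mutant array. Smoc2 was the only gene of the 33 with 2 or more rows in which every row passed.

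Prom1 encodes the membrane glycoprotein prominin 1, found on crypt base cells among others. Its single row, 1419700_a_at, had an absolute t of 6.00 (99.0th percentile, limma adjusted p = 0.0179). The mutant arrays lay at 2.67, 4.33, 3.43, 5.85 and 3.84 and the wildtype arrays at 0.24, 1.27, -1.24 and -0.28, and the gap of 1.40 standard deviations was the widest among the 15 rows with full statistics. Lgr5 encodes the R-spondin receptor by which crypt base stem cells are usually recognised. Its row 1450988_at passed (absolute t 4.77, limma adjusted p = 0.0342), with mutant arrays at 4.09, 4.17, 3.30, 3.29 and 1.15 and wildtype arrays at 0.88, 0.36, -0.28 and -0.96. Mutant replicate 5 stood close to wildtype replicate 1, while the other 4 mutants lay at 3.29 or more. The other Lgr5 row, 1444519_at, lay at the 36.6th percentile (adjusted p = 0.804), so the rows of this gene did not give the same call.

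The 3 remaining stem cell genes had no row past the threshold. Tnfrsf19, a Wnt-responsive receptor of the TNF family, had rows at the 93.7th, 68.1st and 16.8th percentiles, the first at a limma adjusted p of 0.0705 with overlapping groups. Ascl2, the transcription factor that directs the Lgr5 stem cell programme, had its 3 rows at the 83.2nd, 83.1st and 72.7th percentiles (adjusted p from 0.224 to 0.392). Lrig1, which restrains growth factor receptors in stem cells, had rows between the 22.5th and 66.7th.

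Wnt targets outside the stem cell group gave no row past the threshold by limma. Of rows of other genes, 5.19% passed and 21.1% were at an unadjusted p under 0.05. Of the 15 rows of Myc, Ccnd1, Cd44, Ephb3, Sox9, Cdca7 and Sp5, 0 passed and 0 were at an unadjusted p under 0.05, with a median at the 58.8th percentile. The highest were Cdca7, a Myc-responsive nuclear factor, at 80.0 for 1 row and 8.34 for the other, and the cyclin gene Ccnd1 at 76.3. Myc itself, with 1 row, lay at 58.8 (adjusted p = 0.587), the guidance receptor gene Ephb3 at 60.7 and the transcription factor gene Sp5 at 31.3. The 3 rows of Sox9, a transcription factor of crypt progenitors, were at 71.9, 70.2 and 6.34, and the 4 rows of the adhesion receptor gene Cd44 ran from 13.9 to 75.1. The feedback inhibitors that Wnt signalling induces to limit itself passed in 0 of 10 rows (1 at an unadjusted p under 0.05). That row was of Axin2, the scaffold of the destruction complex and the most used readout of the pathway, at the 82.6th percentile (adjusted p = 0.234), and its other row was at 19.1. The ubiquitin ligase genes Rnf43 and Znrf3, which remove Wnt receptors, lay at 46.3 and at 70.7 and 57.9. Nkd1, an inhibitor of Dishevelled, ranged from 22.5 to 79.9 over 4 rows, and Notum, a secreted enzyme that inactivates Wnt ligands, lay at 13.5.

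Among the secreted signals of the Wnt arm, 2 of 32 rows passed by limma (6.25%, against 5.19% of rows of other genes), 6 were at an unadjusted p under 0.05 (18.8%, against 21.1%) and in 5 the groups did not overlap (15.6%, against 9.77%). Both rows past the threshold named secreted antagonists. Dkk2 belongs to the Dickkopf family, whose members bind the Wnt co-receptors. Its only row, 1420512_at, had an absolute t of 5.08 (97.9th percentile, limma adjusted p = 0.028), with mutant arrays at 3.97, 3.31, 4.07, 2.14 and 3.58 and wildtype arrays at 1.97, -1.14, -0.40 and -0.43. Wildtype replicate 1 lay only 0.172 standard deviations from the nearest mutant, far from the other 3 wildtype arrays. Frzb encodes a secreted Frizzled-related protein that binds Wnt ligands. Its row 1448424_at passed (absolute t 4.69, limma adjusted p = 0.0357), with mutant arrays at 3.33, 3.62, 4.93, 1.60 and 2.26 and wildtype arrays at 1.17, -0.29, -0.36 and -0.52. The other Frzb row, 1416658_at, was just outside (absolute t 3.73, limma adjusted p = 0.0707) with groups that did not overlap either, at the 93.7th percentile.

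The other antagonists spread over the whole range. Sfrp1, a decoy for Wnt ligands, had 5 rows between the 0.422nd and the 42.9th percentile, and Sfrp5 had rows at 33.5 and 26.4. Sfrp4 lay at 5.82 and Sfrp2 at 64.2. Wif1, another secreted Wnt-binding protein, was at 80.4, and Dkk3, a divergent Dickkopf member, at 81.9 and 72.9, none of them past the threshold.

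Of the R-spondins, Rspo1 missed the threshold narrowly. Its single row, 1449319_at, had an absolute t of 4.16 (95.5th percentile, limma adjusted p = 0.0503), with mutant arrays at 1.66, 2.95, 3.68, 3.97 and 1.70 and wildtype arrays at -0.29, -0.79, 0.79 and 0.29. The groups were 0.869 standard deviations apart, further than in the rows of Dkk2, Lgr5 and Frzb that passed. Rspo2 lay at 73.0 and 41.2, and Rspo3, a main R-spondin of the intestinal mesenchyme, at 46.8 and 4.43. The Wnt ligands themselves passed in 0 of 12 rows by limma, where 5.19% of rows of other genes did. At an unadjusted p under 0.05 there was 1 (8.33%, against 21.1%). This was a row of Wnt4 at the 84.2nd percentile (absolute t 2.51, adjusted p = 0.207, overlapping groups). Wnt6, with 1 row at 77.5 and non-overlapping groups and the other at 10.7, came next by its higher row, followed by Wnt5b (72.3 and 69.9) and Wnt5a, a ligand of the crypt mesenchyme, with 4 rows from 7.37 to 68.3. Wnt11 lay at 29.5 and Wnt2b, a canonical ligand of stromal cells, at 19.2.

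**Figure D2:**
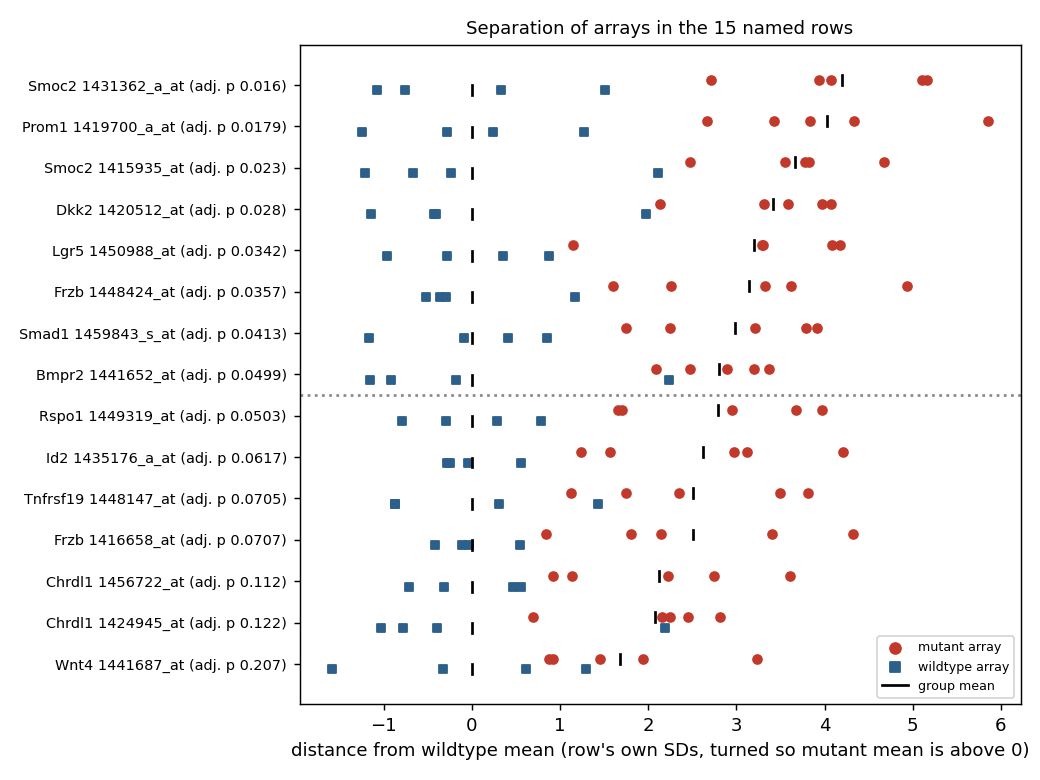
Distance of each array from the wildtype mean (x axis, in the row's own standard deviations, turned so that the mutant mean is above 0) for the 15 rows with full statistics (y axis), with circles for 5 mutant arrays, squares for 4 wildtype arrays and black bars for group means; the dotted line separates the 8 rows past the threshold. Mutant and wildtype arrays overlap in the row of Bmpr2 among those 8, and wildtype replicate 1 lies at 2.24 there and at 1.97 in the row of Dkk2.

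In the BMP arm, 2 of 47 rows passed by limma (4.26%, against 5.19% of rows of other genes), 13 were at an unadjusted p under 0.05 (27.7%, against 21.1%) and in 5 the groups did not overlap (10.6%, against 9.77%). The ligands ranked low, with 0 of 9 rows past the threshold by limma, 1 at an unadjusted p under 0.05 and a median at the 30.1st percentile. Bmp4, the main BMP of the intestinal mesenchyme, lay at 11.8 (adjusted p = 0.950), and Bmp2, made largely by surface epithelium, at 5.24 (adjusted p = 0.979). The 3 rows of Bmp7 were at or below 30.1. Bmp5 was higher in rank, with 3 rows from 72.3 to 85.9 (smallest adjusted p = 0.178), and Bmp6 lay at 76.5. A p that misses the threshold does not show that the groups were alike.

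Of the receptors, Bmpr2, the type II receptor, had 1 row past the threshold, 1441652_at, at a limma adjusted p of 0.0499 (absolute t 4.18). Its mutant arrays lay at 2.89, 2.47, 3.37, 3.20 and 2.09 and its wildtype arrays at 2.24, -0.18, -1.15 and -0.92. Wildtype replicate 1 fell among the mutants, and without it the adjusted p was 0.00506, while the other 8 runs that left out an array gave up to 0.141. Its other rows were at the 53.8th and 20.6th percentiles. Bmpr1a, the type I receptor whose loss in epithelium expands crypts, had 6 rows between 19.2 and 66.9. By limma 0 passed and 0 were at an unadjusted p under 0.05, against 5.19% and 21.1% of other rows.

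Among the transducers, Smad1 passed in its row 1459843_s_at (absolute t 4.44, limma adjusted p = 0.0413), with mutant arrays at 3.21, 3.79, 3.92, 1.75 and 2.25 and wildtype arrays at 0.85, 0.41, -0.09 and -1.17. The groups were 0.903 standard deviations apart. By the array maker's naming, a probe set ending in s_at may match transcripts of more than a single gene. The other Smad1 rows lay at 87.2 and 64.8. Smad4, the common partner, was low in rank in every row (28.9, 12.8 and 3.80), and Smad5 lay at 65.7, 29.2 and 14.7. The inhibitory Smads, which BMP and TGF-beta signals induce as a brake, passed in 0 of 3 rows by limma, against 5.19% of other rows. At an unadjusted p under 0.05 there was 1 (33.3%, against 21.1%), a row of Smad7 at 82.2. The other Smad7 row lay at 53.3 and that of Smad6 at 25.1.

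The Id genes, inhibitors of basic helix-loop-helix factors and the standard targets of BMP signalling, passed in 0 of 8 rows by limma, but 4 of the 8 were at an unadjusted p under 0.05 (50%, against 21.1% of other rows). Their median, the 83.6th percentile, was the highest of the 12 role groups. The 4 rows were 2 of Id2 and 2 of Id4, genes with 3 rows each, while Id1 and Id3 had 0, so both figures rest largely on 2 genes. Id2 led with row 1435176_a_at (absolute t 3.91, limma adjusted p = 0.0617), in which mutant arrays lay at 4.21, 2.97, 3.12, 1.57 and 1.24 and wildtype arrays at -0.04, -0.25, 0.56 and -0.28 without overlap. The mutants were far more scattered than the wildtypes in that row. Its other rows were at 87.0 and 52.9. Id4 had all 3 rows between 80.2 and 89.0, while Id1 lay at 71.3 and Id3 at 33.5.

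Antagonists and modulators of BMP passed in 0 of 9 rows by limma, where 5.19% of rows of other genes did. At an unadjusted p under 0.05 there were 4 (44.4%, against 21.1%), 3 of Chrdl1 and 1 of Bmper. Chrdl1, a chordin-like binder of BMPs, had 3 of its 4 rows at 90.3, 89.8 and 89.3 and the fourth at 61.4. Row 1456722_at (absolute t 3.17, limma adjusted p = 0.112) placed the mutants at 3.61, 2.75, 0.92, 1.14 and 2.22 and the wildtypes at -0.71, 0.56, 0.47 and -0.32, without overlap. Row 1424945_at had a like absolute t of 3.09 (limma adjusted p = 0.122), but wildtype replicate 1 lay at 2.19, within the mutants, and the groups overlapped. Bmper, which binds BMPs outside the cell, was at 86.1 (adjusted p = 0.176). The crypt base antagonists Grem1 and Nog lay at 30.9 and 30.1, Chrd at 42.0 and the decoy receptor gene Bambi at 7.46.

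Rows of 1 gene often differed in strength. Over the 33 genes with 2 or more rows, the median distance between the highest and the lowest percentile was 39.9, and it ran from 0.762 to 76.9. The rows of Smoc2, Wnt5b and Frzb lay close together, and those of Tnfrsf19, Bmpr2, Cdca7 and Sox9 far apart. Of the 5 such genes with a row past the threshold, Smoc2 passed in 2 of 2 rows, Frzb and Lgr5 in 1 of 2, and Smad1 and Bmpr2 in 1 of 3.

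**Figure D3:**
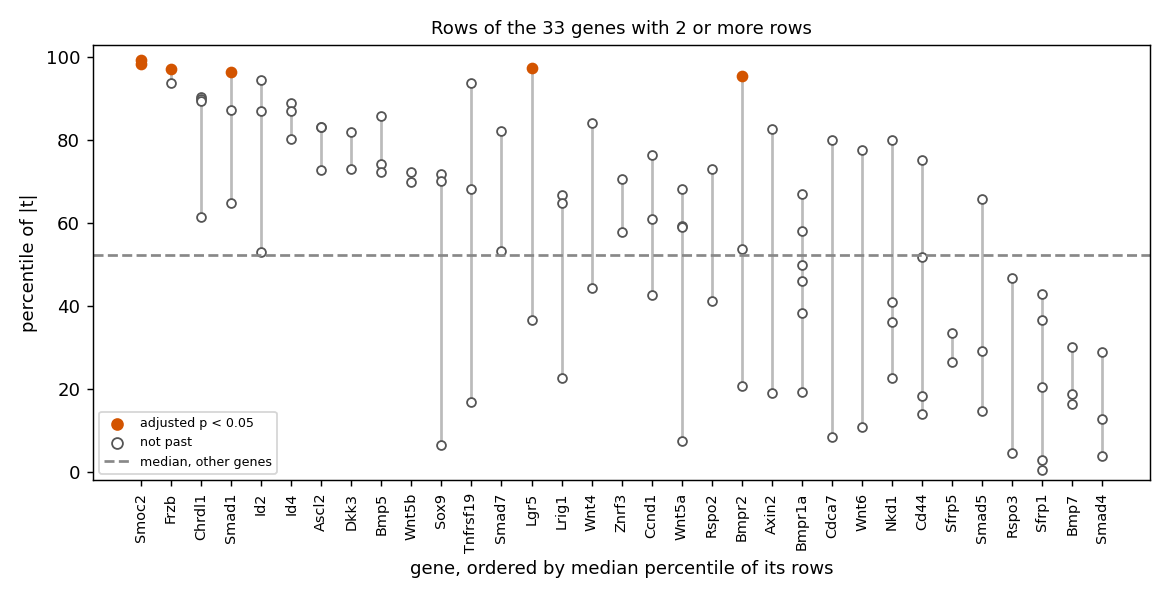
Percentile of the absolute t (y axis) of every row of the 33 genes with 2 or more rows (x axis, ordered by their median), with filled points for rows at an adjusted p under 0.05, grey lines joining the rows of a gene and a dashed line at the median of other genes, 52.2. Smoc2 stands at the left with rows at 99.2 and 98.4, and Smad4 at the right with rows from 3.80 to 28.9.

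The same arrays set the narrow gaps. In the 8 rows past the threshold, the wildtype array nearest the mutants was wildtype replicate 1 in 5 rows and wildtype replicate 2 in 3. The mutant nearest the wildtypes was replicate 4 in 4 rows and replicates 1 and 5 in 2 each. The median distance over these rows was 0.87 for wildtype replicate 1 and 0.39 for wildtype replicate 2, against -0.74 and -0.72 for the other wildtypes. Wildtype replicates 1 and 2 had the lowest array numbers of their group, 5 and 8. Among mutants it was 3.27, 3.80 and 3.85 for replicates 1 to 3 (array numbers 1, 3 and 4) and 2.95 and 2.90 for replicates 4 and 5 (6 and 7). The part of array number in these differences was not tested within a genotype. With the number in the model as a covariate, adjusted p-values of the 8 rows lay between 0.123 for Prom1 and 0.410 for Bmpr2.

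Across 9 runs that each left out 1 array, the row of Prom1 and the first row of Smoc2 each stayed under 0.05 in 7, with a highest adjusted p of 0.0608 and 0.0570. The second Smoc2 row did so in 5 runs, Frzb in 3, Dkk2, Lgr5 and Smad1 in 2 and Bmpr2 in 1. When the rows of a gene were averaged, of the 5 genes with more than 1 row Smoc2 (0.00933) and Frzb (0.0293) were under 0.05, and Lgr5 (0.107), Smad1 (0.0875) and Bmpr2 (0.371) were above it. Rows of a name share neither level nor sign, so an average also depends on whether their signs happened to match. These averaged values therefore do not rank the genes.

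**Figure D4:**
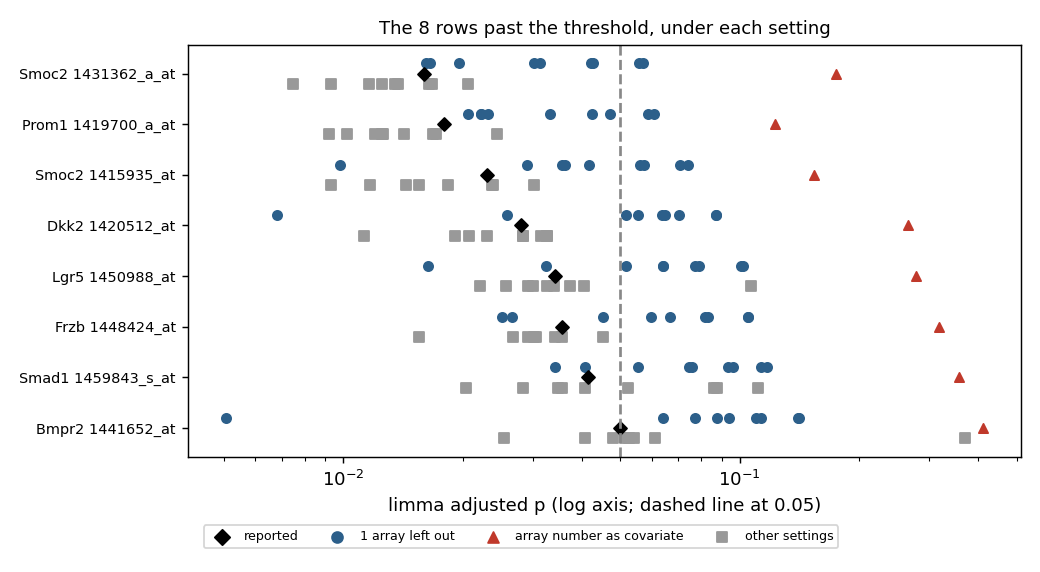
Limma adjusted p (x axis, log scale, dashed line at 0.05) of the 8 rows past the threshold (y axis) as reported (diamonds), with 1 array left out (circles), with array number as a covariate (triangles) and under the other settings (squares). With array number as a covariate every row lies above 0.05, from 0.123 to 0.410, and circles lie on both sides of the line in every row.

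Other genes of the 2 pathways came from a list set up beside the 57. Of 45 rows of 20 further BMP pathway genes 0 passed by limma, where 5.19% of all 34827 rows outside the 57 did. At an unadjusted p under 0.05 there were 5 (11.1%, against 21.1%), and the median lay at the 47.5th percentile. Of 88 rows of 38 further Wnt pathway genes 7 were at an unadjusted p under 0.05 (7.95%, against 21.1%), with a median at 33.8. By limma 2 of the 88 passed (2.27%, against 5.19%). They were rows of Axin1, a scaffold of the destruction complex (98.2nd percentile, adjusted p = 0.025), and Ryk, a Wnt co-receptor (95.8th, adjusted p = 0.0476, overlapping groups).

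Rows of direct Hedgehog targets and of proliferation genes had medians at the 96.4th and 93.9th percentile, beside 58.8 for the crypt niche genes. Lists were chosen with earlier results of these data known, so these medians and the shares below are a description. All 4 rows of Hhip, a decoy receptor induced by Hedgehog signalling, passed by limma (percentiles from 99.5 to 99.7). The row of Gli1 lay at 87.6 (limma adjusted p = 0.153) and those of Ptch1 at 93.3, 92.2 and 32.3 (from 0.0761 to 0.834). Neither of these 2 genes had a row past the threshold, so all 4 calls in the 8 Hedgehog rows named Hhip. Whether the Ptch1 probe sets lie inside the deleted exons is unknown here. Of 27 rows of proliferation genes 11 passed (40.7%), and of 10 rows of absorptive colonocyte markers 3 did (30%). Of all 34827 rows of genes outside the crypt niche list, 5.19% passed and 21.1% were at an unadjusted p under 0.05. Goblet cell and enteroendocrine markers passed in 1 of 8 (12.5%) and 1 of 5 rows (20%) and fibroblast markers in 1 of 13 (7.69%). By limma 0 rows passed of 10 for smooth muscle (5 at an unadjusted p under 0.05), 9 for general epithelium (2), 9 for enteric glia and neurons (1), 6 for macrophages (2), and 5 for endothelium, 9 for T cells and 4 for B and plasma cells (0 each). In whole colon, a change in the number of a cell type and a change of RNA per cell cannot be told apart, and the part of cell composition in the calls of Smoc2, Prom1 and Lgr5 was not tested.

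Promoters were looked at for the 7 genes with a row past the threshold, of which 5 had a window in the RefSeq table (GRCm38.p6), with Lgr5 and Smoc2 not among them. The 250 bases before the start site were searched on both strands for exact strings of letters. CTTTGA is a form of the core read by the TCF/LEF factors of Wnt signalling, and GGCGCC is a GC-rich element bound by BMP Smads. CTTTGA was in the window of Frzb on the strand opposite the gene, so it reads TCAAAG in the sequence below. GGCGCC was in the window of Bmpr2, and neither string was found for Dkk2, Prom1 or Smad1. Other forms of these elements were not searched, so a window without a match may still hold such a form. The windows of Frzb, Bmpr2 and Dkk2 are shown, with matches in capitals, because these are the secreted antagonists and the receptor named above. Frzb lies at chr2:80447397-80447646 on the minus strand, Bmpr2 at chr1:59764029-59764278 on the plus strand and Dkk2 at chr3:132085042-132085291 on the plus strand, each read 5′ to 3′ along the gene.
Frzb: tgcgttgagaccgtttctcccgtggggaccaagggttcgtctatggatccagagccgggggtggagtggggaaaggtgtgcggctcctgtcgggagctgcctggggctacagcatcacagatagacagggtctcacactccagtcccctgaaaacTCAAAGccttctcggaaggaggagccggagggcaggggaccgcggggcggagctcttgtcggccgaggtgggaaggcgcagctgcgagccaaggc
Bmpr2: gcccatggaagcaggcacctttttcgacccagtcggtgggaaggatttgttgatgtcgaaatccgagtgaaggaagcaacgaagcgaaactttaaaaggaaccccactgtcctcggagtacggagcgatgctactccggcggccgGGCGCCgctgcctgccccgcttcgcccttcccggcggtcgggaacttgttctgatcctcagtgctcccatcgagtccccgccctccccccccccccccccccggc
Dkk2: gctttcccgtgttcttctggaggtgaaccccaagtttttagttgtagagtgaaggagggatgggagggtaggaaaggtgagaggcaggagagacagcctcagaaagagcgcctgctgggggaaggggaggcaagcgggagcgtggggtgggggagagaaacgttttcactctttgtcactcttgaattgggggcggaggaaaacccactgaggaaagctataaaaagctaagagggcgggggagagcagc
The match lies 95 bases before the start site in Frzb, counted from its first base, and 105 in Bmpr2. Over all 44 windows of the 36 crypt niche genes in the table, 6 held CTTTGA (13.6%, against 13.8% of all 32851 windows) and 12 held GGCGCC (27.3%, against 9.59%). Base composition was not matched between these sets. A match describes the letters in the window and says nothing of binding in these colons.

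Set against the crypt, the rows of stem cell genes gave 4 calls in 14 rows, the other Wnt targets and feedback inhibitors 0 in 25 and the Id targets 0 in 8, by limma on 5 and 4 arrays, where 5.19% of rows of other genes passed. At an unadjusted p under 0.05 these counts were 7, 1 and 4, against 21.1% of other rows. A count of 0 in 25 or in 8 rows is near the share of 5.19%. The 4 stem cell calls were 0 without wildtype replicate 3, without wildtype replicate 4 and with array number in the model. In these fits 0.991%, 1.02% and 0.0775% of other rows passed. The differences between the shares of these gene groups were not tested, and no direction could be given for any of them.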

How the data were processed

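The authors deposited linear intensities, 1 per probe set and array, from Affymetrix Expression Console 1.1, as the submitters' processing notes name it. Summary algorithm, background correction and genome build were not stated in any source used here. Intensities spanned 5.21 to 23117, and array medians lay between 53.8 and 54.7, so no further normalization was applied. Per the labels' protocols, 100 ng of RNA was labelled with biotin. Precision is limited by the number of arrays. Of 45101 rows, 64 controls were left out. The platform annotation gave 1 symbol to 34945 of the rest, several to 932 and none to 9160.

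Log2(intensity + 16) was tested row by row in R 4.3.3 with limma 3.58.1 (two-sided, by lmFit followed by eBayes, 7 residual and 2.26 prior degrees of freedom), adjusted by Benjamini-Hochberg over all 45037 rows at 0.05. The fit was tested on simulated data. Every row was kept, since rows of a name share neither level nor sign. Full statistics go to rows past the threshold and to the 5 smallest p of each arm, 15 in all. Genes, lists, roles and promoter motifs were chosen with earlier results of these data known. Alternatives were pseudocounts of 1 and 64, leaving out the dimmest 25% of rows, trend and robust, array weights, quantile normalization, median centring, array number as a covariate, the brightest row or the mean of rows per gene, other thresholds, and leaving out each array.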

Additional observations from a re-analysis of the deposited data

Results flagged for a closer look

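In the 15 rows with full statistics and the array medians, 32 groups of arrays were checked for an array far from its group, and 2 stood out, where chance gives about 1 in 20. In the row of Lgr5, mutant replicate 5 lay at 1.15 standard deviations from the wildtype mean and the next mutant at 3.29, a gap of 0.71 of the range of the group. In the row of Frzb past the threshold, wildtype replicate 1 lay at 1.17 and the next wildtype at -0.29, a gap of 0.864 of the range. Without these arrays the limma adjusted p was 0.0163 for Lgr5 and 0.0267 for Frzb. Each was the array of its group nearest the other genotype, so leaving it out by itself widens the distance between the groups. Over all 9 runs that left out 1 array, the adjusted p reached 0.102 for Lgr5 and 0.105 for Frzb. It was under 0.05 in 2 and 3 of these runs.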

How the results depend on the processing

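Direction was kept for the 8 rows past the threshold in every row-level alternative run. With array number as a covariate the count of rows past the threshold was 0 in all 3 arms, as it was at an adjusted p under 0.01. With the covariate 0.0775% of other rows passed. The BMP count of 2 was 0 with a pseudocount of 1, with trend and robust and with the mean of rows per gene. It was 1 with a pseudocount of 64, with dim rows left out and with the brightest row per gene. The Wnt ligand and antagonist count of 2 was 4 with array weights and at an adjusted p under 0.10. Of rows of other genes 5.19% passed in the main fit, 4.63% with a pseudocount of 1 and 4.51% with 64. It was 4.69% with trend and robust, 7.52% with dim rows left out and 8.21% with array weights. Of other genes 8.09% passed with the brightest row and 6.08% with the mean of rows. Shares of other rows at thresholds of 0.01 and 0.10 are not given here. When each array was left out in turn, from 0.991% to 6.5% of other rows passed. Counts then ran from 0 to 10 over all 118 rows and 0 to 3 in the BMP arm. They ran from 0 to 3 among Wnt ligands and antagonists and 0 to 5 among Wnt targets and stem cell genes. The median percentiles ran from 51.1 to 62.1, 49.8 to 62.6, 46.2 to 62.7 and 52.6 to 65.0 in the same order. The median over all 57 genes was 46.6 with the mean of rows per gene, where the other genes lay at 50, and that of the BMP arm was 37.9 there and 32.5 with the brightest row. Fewer features enter those fits, and their counts are of genes. The mean also mixes rows that share neither level nor sign. Of 277 calls of the 15 named rows under alternatives, 201 were the same, 61 lost the threshold and 15 gained it. Only the 8 rows past the threshold could lose it, and the 201 include settings in which a row outside stayed outside. Among the 8, losses ran from 3 of 19 settings for Prom1 and the first Smoc2 row to 14 of 18 for Bmpr2. No paired analysis was possible because replicate numbers were given in accession order and pair no samples. With 9 arrays, the counts do not tell small differences from none.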
